A study of Mus musculus with 12 samples.

Results

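The S100 genes encode small calcium-binding proteins, and 7 of them, S100a1, S100a4, S100a6, S100a10, S100a11, S100a13 and S100a16, were taken by name from a deposited table of 19439 gene entries. All 7 were found, 1 row each, and all 7 passed a filter that asks for 1 RPKM or more in any 3 of the 12 libraries, which left 11461 genes to be tested. RPKM scales reads by transcript length and by the reads mapped in a library, so levels can be compared between genes. The annotation behind the lengths is not given. The libraries were made from MEFs, mouse embryonic fibroblasts, of 2 immortalised 3T3 lines. The WT line carried wildtype p53 and the p53-null line was p53 -/-. Each line was kept for 18 h in DMEM with 25 mM glucose and either 2 mM L-glutamine (complete medium) or no glutamine (glutamine-free medium), with 3 libraries in each of the 4 groups. One line stands for each genotype, so a difference by genotype is a difference between 2 lines. The study's title asks how p53 bears on adaptation to glutamine deprivation, and the design compares the response of a line with p53 to that of a line without it.

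S100 proteins carry a pair of EF-hands, the helix-loop-helix calcium-binding motif, and most work as dimers. Calcium opens a surface that lets the dimer grip a target, often an annexin or a cytoskeletal protein, and some members also act outside the cell through receptors such as RAGE and TLR4. In fibroblasts S100a4 is widely used as a marker under the name fibroblast-specific protein, while S100a10 is the light chain of the annexin A2 tetramer and is the exception that needs no calcium.

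All 7 genes lie on chromosome 3 (mm10), in 2 places. In the larger cluster S100a1 (90511034 to 90514392, minus strand) and S100a13 (90514435 to 90524581, plus strand) stand back to back, followed on the plus strand by S100a16 (90537254 to 90543151), S100a4 (90603771 to 90606045) and S100a6 (90612882 to 90624181). S100a11 (93520488 to 93526287) and S100a10 (93555080 to 93564643), both on the plus strand, lie 2896306 bases beyond S100a6. S100a4 and S100a6 are 6836 bases apart, with S100a5, which is not among the 7 members, between them. No member shared exonic bases with a gene on the other strand, but 302 bases of S100a4, or 51.71% of its exonic length, also belong to Gm42674, a same-strand gene model that is no row of the table, and how such reads were assigned is not given in the sources used here.

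S100a4, S100a6 and S100a11 fell by very different amounts in WT cells, and S100a4 and S100a6 lie close together on one strand. For this reason the 3 upstream stretches below are shown. They are RefSeq sequences of GRCm38.p6, the assembly behind mm10, and hold the 250 bases before the RefSeq transcript start, 5′ to 3′ on the plus strand. Capitals mark TATAAA, the TATA box sequence, in S100a4, and TGANTCA, the AP-1 motif, in S100a11.
S100a4, chr3:90603520-90603769: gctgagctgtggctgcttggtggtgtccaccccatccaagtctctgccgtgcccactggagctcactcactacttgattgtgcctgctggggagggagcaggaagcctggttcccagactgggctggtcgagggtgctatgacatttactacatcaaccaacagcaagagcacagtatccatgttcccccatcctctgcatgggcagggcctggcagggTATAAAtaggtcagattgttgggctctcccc
S100a6, chr3:90612644-90612893: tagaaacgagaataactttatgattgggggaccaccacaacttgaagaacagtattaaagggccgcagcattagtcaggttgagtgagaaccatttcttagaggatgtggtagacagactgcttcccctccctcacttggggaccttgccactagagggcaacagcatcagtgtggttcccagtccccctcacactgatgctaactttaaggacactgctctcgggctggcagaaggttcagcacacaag
S100a11, chr3:93520246-93520495: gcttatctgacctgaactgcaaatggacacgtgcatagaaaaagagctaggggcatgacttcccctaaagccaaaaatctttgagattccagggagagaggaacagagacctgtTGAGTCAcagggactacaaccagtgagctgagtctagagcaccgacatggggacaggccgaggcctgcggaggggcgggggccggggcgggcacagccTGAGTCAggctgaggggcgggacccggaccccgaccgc

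The S100a4 stretch held 1 TATAAA, 31 bases before the start, a sequence found in 12.4% of 32851 upstream windows of the same length. The S100a11 stretch held TGANTCA at 136 and 38 bases before the start and GGGCGG, the GC box, at 64, 52 and 24 bases before it. Neither motif occurred in the S100a4 or S100a6 stretch. Over all windows TGANTCA was in 6.7% and GGGCGG in 32.7%, and each was in 2 of the 7 windows of the members. These 7 windows cover 6 members, as the set of windows used here held none for S100a10. CANNTG, the E-box, was in 5 of these 7 windows against 66.2% of all. TGACGTCA, the cyclic AMP response element, TGATGNAA, a C/EBP-ATF site, and the p53 half-site matched none of the 7, against 1.5%, 3.5% and 7.1% of all windows. Both strands were searched in the 250 bases before the start, and a GC box can overlap another. These are matches of letters and not measured binding.

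The interval between S100a1 and S100a13 is short enough to print whole, and these neighbours are read in opposite directions from it. Their levels were nearly equal in WT cells in complete medium, where the ratio of S100a13 to S100a1 was 0.9954. The ratio was 0.8043, 0.4863 and 0.6155 in WT glutamine-free, p53-null complete and p53-null glutamine-free libraries. The interval holds the 42 bases between the gene ends given above, which are those of GENCODE. Its sequence is from RefSeq (GRCm38.p6, plus strand). The RefSeq start of S100a1 lies at 90514330, inside the GENCODE gene.
S100a1 to S100a13, chr3:90514393-90514434: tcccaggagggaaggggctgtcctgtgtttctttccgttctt

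The summed RPKM ranged from 284426 to 319735 per library, and 10306 to 10671 genes reached 1 RPKM. The spacing of low values put the depth at 37.5 to 46.3 M reads, which would give S100a16, the lowest member, 30 to 300 reads per library and S100a6, the highest, 18905 to 83036. Trp53 was 58.5 ± 0.585, 111.8 ± 2.22, 28.8 ± 0.873 and 34.6 ± 0.614 RPKM (SD, n = 3) in WT complete, WT glutamine-free, p53-null complete and p53-null glutamine-free libraries; the deleted part of the allele is not given, so a value per gene does not check the genotype. The 10 fibroblast markers, 8 of which reached 1 RPKM in each group, summed to 3184 to 3196, 896.9 to 904.8, 2483 to 2520 and 1427 to 1452 RPKM in the same order of groups. Of these 8, which were tested, all fell with withdrawal in WT cells, where 44% of all tested genes were called lower and 46% higher. In p53-null cells 7 fell and 1, Fn1, rose by 0.046 on the log2 scale. Over all genes there 32% were called lower and 50% higher. Most of these markers thus fell with withdrawal in both lines, as did the S100 genes. The sums hide differences between the lines. In complete medium 7 of the 8 were called lower in the p53-null line and 1, Vim, higher. Over all genes 42.5% were lower and 48.4% higher there. Vim was 760 RPKM in WT complete and 1730 in p53-null complete libraries, while Col1a2 was 711.6 and 29.53. In glutamine-free medium 4 were lower and 4 higher, against 40% and 51.4% of all genes. Thy1 was listed at 0 in WT glutamine-free libraries and Lum in all p53-null libraries. Of 7 epithelial markers, 6 were in the table and summed to at most 0.2525 RPKM in WT but 77.27 to 78.59 and 82.53 to 84.73 RPKM in p53-null libraries, where Krt18 and Krt19 made up most of the sum, while Epcam was near 0. Blood markers summed to at most 7.682 RPKM and endothelial markers to at most 1.579, and muscle and neural markers ranged from 3.437 to 37.54 RPKM, highest in WT complete libraries. The part of these markers in the S100 values was not tested, and in bulk RNA fewer cells of a type and less RNA per cell cannot be told apart.

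S100a6, S100a4, S100a10 and S100a11 were abundant, and S100a1, S100a13 and S100a16 were low. In WT cells in complete medium S100a6 had the 7th highest mean of the table, S100a4 the 28th, S100a10 the 88th and S100a11 the 93rd. S100a1 and S100a13 followed at about 18 RPKM with overlapping libraries, and S100a16 was lowest. The order changed between groups: S100a11 was number 4 in both WT groups, number 2 in p53-null complete and number 1 in p53-null glutamine-free libraries, whereas S100a4 was number 2, 3, 4 and 5 in WT complete, WT glutamine-free, p53-null complete and p53-null glutamine-free libraries. In each group neighbours in the order did not overlap, except S100a1 and S100a13 in WT complete and S100a13 and S100a16 in p53-null complete libraries.

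**Figure D1:**
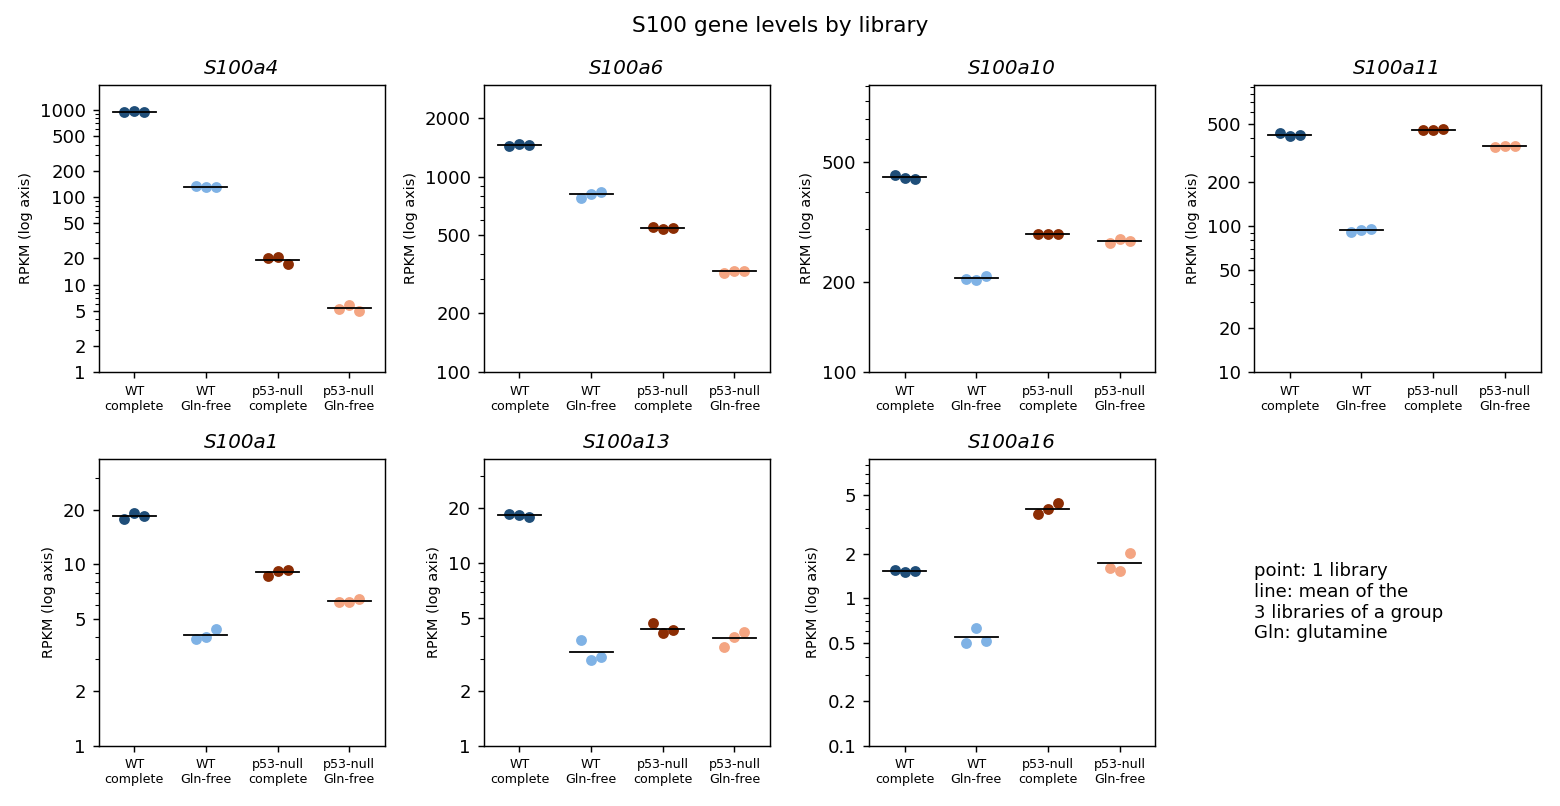
RPKM (log axis) of each of the 7 S100 genes in the 12 libraries, 3 per group, 1 panel per gene; points are libraries and lines are group means. S100a4 spans from 960.8 RPKM in a WT complete library to 5.048 in a p53-null glutamine-free library, while S100a10 keeps within 202.6 to 453.4 RPKM.

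The 7 genes together summed to 3303 ± 22.7 RPKM (SD, n = 3) in WT complete libraries, or 1.052% of all RPKM. The sum was 1251 ± 32.3 RPKM in WT glutamine-free, 1329 ± 4.84 in p53-null complete and 968.8 ± 13.3 in p53-null glutamine-free libraries, or 0.3935%, 0.4556% and 0.338% of all RPKM. S100a6 held 44.02% of the WT complete sum and 65.05% of the WT glutamine-free sum. S100a4 held 28.6% and 10.48% of those sums but only 1.455% and 0.556% in the p53-null groups, where S100a11 held 34.36% and 36.21%. The makeup of the family therefore differed between groups as well as its total.

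Glutamine withdrawal in the WT line lowered all 7 S100 genes. All 7 were called lower and none higher at a limma adjusted p under 0.05, with no overlap between libraries of the groups, where 44% of all tested genes were called lower, 46% higher, and 44.1% were lower without overlap. Calls were common in this comparison (90.1% of genes in either direction), so the size of the change says more than the call: the median log2 change was -1.94 over the members and 0.01 over all tested genes. Of the members 5 fell by at least 1 on the log2 scale, a size that 12.9% of all genes reached among lower calls. The members were chosen with earlier results of these data known. With the 2 other S100 genes that passed the filter, S100a3 and S100a7a, 7 of 9 were called lower and 1 higher, with a median of -1.12. The values by member follow.

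S100a4 binds non-muscle myosin IIA and is linked to cell motility. Its level was 934.7, 960.8 and 938.3 RPKM in WT cells with glutamine and 133.6, 129.1 and 130.7 RPKM without. Every library without glutamine lay far below every library with it. The ratio of the means was 7.204, and the log2 change of -2.84 ± 0.0545 (SE; limma adjusted p = 1.7e-14) was at the 0.64 percentile of all tested genes, counted from the most negative. S100a6, or calcyclin, binds CacyBP/SIP. It was 1438, 1474 and 1449 RPKM with glutamine and 782.0, 819.6 and 839.4 RPKM without, and the groups did not overlap. Its log2 change was -0.84 ± 0.022 (adjusted p = 3.7e-13).

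S100a11 pairs with annexin A1. It was 430.8, 409.9 and 418.0 RPKM with and 90.3, 93.43 and 95.54 RPKM without glutamine, a ratio of 4.507 with groups wide apart. The log2 change was -2.16 ± 0.0219 (adjusted p = 4.9e-17). S100a10, the annexin A2 partner, was 453.4, 444.5 and 442.0 RPKM with and 203.8, 202.6 and 208.8 RPKM without glutamine. The groups did not overlap, and the log2 change was -1.12 ± 0.0152 (adjusted p = 6.3e-16). S100a10 and S100a11, close in level in complete medium, thus fell by unequal amounts.

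S100a1, best known as a regulator of calcium cycling in muscle, was 17.79, 19.16 and 18.53 RPKM with and 3.881, 3.999 and 4.414 RPKM without glutamine. S100a13, which takes part in the export of proteins that lack a signal peptide, was 18.75, 18.42 and 17.99 RPKM with and 3.82, 2.938 and 3.063 RPKM without. Both neighbours fell without overlap, by -1.94 ± 0.0416 (adjusted p = 5e-14) and -2.19 ± 0.0719 (adjusted p = 3.7e-12) on the log2 scale. S100a16 was 1.559, 1.511 and 1.521 RPKM with and 0.4999, 0.6278 and 0.516 RPKM without glutamine, so the fall was seen at levels near the filter. Its ratio of means was 2.793, and its log2 change of -0.71 ± 0.0671 (adjusted p = 3e-07) is understated by the pseudocount of 1 RPKM (-1.34 with 0.1 RPKM).

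In the p53-null line the same withdrawal lowered 6 of the 7 S100 genes, by less in most cases. None was called higher, where 32% of all genes were called lower and 50% higher. The median log2 change was -0.46 over the members and 0.08 over all genes. With S100a3 and S100a7a added, 7 of 9 S100 genes were called lower and 1 higher. Of the calls over all genes 5732 were higher and 3671 lower (61% higher), against 4525 and 4984 (47.6% higher) when each library was centred on its median, so small changes in this comparison depend on the scaling.

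S100a4 was 19.94, 20.69 and 17.38 RPKM in p53-null libraries with glutamine and 5.253, 5.859 and 5.048 RPKM without. The groups did not overlap, and the ratio of the means was 3.59. The log2 change was -1.67 ± 0.0545 (adjusted p = 1.5e-11), at the 0.44 percentile of all tested genes. S100a6 was 551.6, 542.6 and 545.2 RPKM with and 322.2, 330.5 and 328.8 RPKM without glutamine, a log2 change of -0.74 ± 0.022 (adjusted p = 7.1e-12; -0.49 under quantile normalization). S100a16 was 3.716, 4.001 and 4.416 RPKM with and 1.612, 1.523 and 2.041 RPKM without glutamine, and its log2 change of -0.89 ± 0.0671 (adjusted p = 4.7e-08) was second in size after S100a4. These 3 genes had the largest falls in the p53-null line.

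S100a11 was 454.0, 453.8 and 461.6 RPKM with and 345.2, 353.4 and 353.6 RPKM without glutamine, a log2 change of -0.38 ± 0.0219 (adjusted p = 3.4e-09) that shrank to -0.09 under quantile normalization (adjusted p = 0.000476). S100a1 was 8.613, 9.192 and 9.321 RPKM with and 6.248, 6.184 and 6.467 RPKM without, a log2 change of -0.46 ± 0.0416 (adjusted p = 3e-07). Both were lower in every library without glutamine, by far less than in the WT line. S100a10 was 288.6, 288.7 and 289.7 RPKM with and 269.8, 277.2 and 273.7 RPKM without glutamine. Its log2 change of -0.08 ± 0.0152 (adjusted p = 0.00035) passed the test, but it was -0.18 after median centring and 0.03 under quantile normalization (adjusted p = 0.0634), so its direction was not stable. S100a13 was 4.684, 4.147 and 4.322 RPKM with and 3.479, 3.956 and 4.203 RPKM without, with overlapping libraries. Its change of -0.14 did not pass the test (adjusted p = 0.0818; 95% interval -0.3 to 0.01), though it did after median centring (-0.25, adjusted p = 0.00581) or quantile normalization (-0.16, adjusted p = 0.0431).

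The difference between the 2 responses was tested directly as the WT log2 change minus the p53-null log2 change. It was called below 0 for 6 of the 7 genes and above 0 for none, where 46.4% of all genes were called below 0, 38.4% above and 84.9% in either direction. With S100a3 and S100a7a added, 6 of 9 S100 genes were called below 0 and 2 above. The largest difference was that of S100a13, at -2.04 ± 0.102 (adjusted p = 6.3e-10), followed by S100a11 at -1.78 ± 0.031 (adjusted p = 3.6e-14) and S100a1 at -1.48 ± 0.0589 (adjusted p = 7e-11). S100a4 differed by -1.17 ± 0.077 (adjusted p = 1.1e-08) and S100a10 by -1.04 ± 0.0215 (adjusted p = 1.6e-13). For these 5 genes the fall was deeper in the WT line under every alternative tried.

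S100a6 and S100a16 had the smallest differences of responses. The 2 responses of S100a6 differed by -0.10 ± 0.0312 (adjusted p = 0.0102; 95% interval -0.167 to -0.031), a small difference that was 0.00 after median centring (adjusted p = 0.963) and -0.34 under quantile normalization (adjusted p = 3.93e-06), so its size depended on the scaling. Those of S100a16 differed by 0.18 ± 0.0949 (adjusted p = 0.0929; 95% interval -0.026 to 0.387), which does not show that they were equal. Its sign depended on the pseudocount: with 0.1 in place of 1 the difference was -0.15 (adjusted p = 0.374), and the WT fall was -1.34. After median centring and quantile normalization S100a16 passed the test, at 0.28 (adjusted p = 0.0141) and 0.35 (adjusted p = 0.00368). It also did without p53-null complete replicate 1 (0.23, adjusted p = 0.0443) or without p53-null glutamine-free replicate 3 (0.26, adjusted p = 0.00674).

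**Figure D2:**
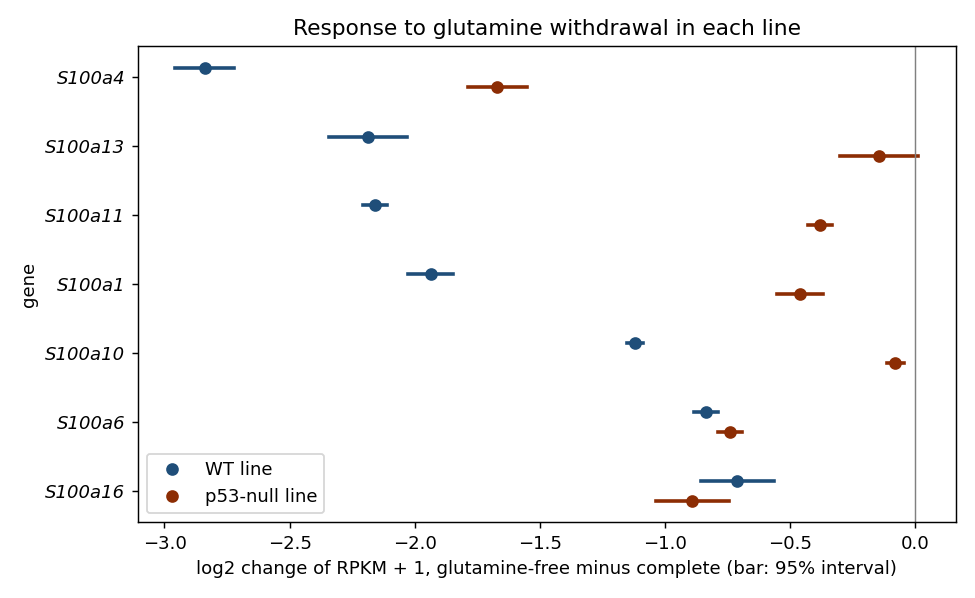
Log2 change of RPKM + 1 with glutamine withdrawal for each S100 gene in the WT line and in the p53-null line, with 95% intervals from limma. The intervals of the lines are far apart for S100a4, S100a13, S100a11, S100a1 and S100a10, while S100a6 (-0.84 and -0.74) and S100a16 (-0.71 and -0.89) lie close.

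S100a4 set the 2 lines apart more than any other member. With glutamine its mean was 944.6 ± 14.1 RPKM (SD, n = 3) in WT and 19.3 ± 1.74 in p53-null libraries, a ratio of 48.84 and a log2 difference (p53-null minus WT) of -5.54 ± 0.0545 (adjusted p = 3.2e-17), the 12th most negative of 11461. Without glutamine the means were 131.1 ± 2.27 and 5.39 ± 0.422 RPKM, a ratio of 24.34 and a log2 difference of -4.37 ± 0.0545 (adjusted p = 3.8e-16). The lowest WT library thus stood above the highest p53-null library in both media. S100a6, the member closest to it on the chromosome, was also lower in the p53-null line. Its log2 differences were -1.41 with glutamine (adjusted p = 2.5e-15) and -1.31 without (adjusted p = 6.1e-15). The ratio of S100a4 to S100a6 went from 0.6497 in WT complete to 0.1613, 0.03539 and 0.01646 in WT glutamine-free, p53-null complete and p53-null glutamine-free libraries.

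In complete medium 5 members were lower in the p53-null line and 2 were higher, where 42.5% and 48.4% of all genes were called lower and higher. Besides S100a4 and S100a6, the lower ones were S100a13 (-1.85, adjusted p = 2.3e-11), S100a1 (-0.96, adjusted p = 7.7e-11) and S100a10 (-0.63, adjusted p = 1.8e-13). The higher ones were S100a16 at 0.99 (adjusted p = 8.6e-09) and S100a11 at 0.12 (adjusted p = 0.00016). S100a11 had means of 419.6 ± 10.6 and 456.5 ± 4.44 RPKM, so the lines were close before withdrawal. With rescaled libraries the S100a11 difference was 0.23 and under quantile normalization 0.34, while that of S100a10 was -0.28 under quantile normalization.

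In glutamine-free medium only S100a4 and S100a6 stayed lower in the p53-null line, and the other 5 were called higher, where 40% and 51.4% of all genes were called lower and higher. S100a11 had the largest difference of these 5, with 93.1 ± 2.64 RPKM in WT and 350.7 ± 4.83 in p53-null libraries, a ratio of 3.768 and a log2 difference of 1.90 ± 0.0219 (adjusted p = 1.9e-16). S100a10 (0.41, adjusted p = 1.4e-11) and S100a1 (0.52, adjusted p = 5.4e-08) were lower in the p53-null line with glutamine and higher without it. S100a16 was higher in both media (0.81 without glutamine, adjusted p = 7.4e-08; 1.49 with a pseudocount of 0.1). Under quantile normalization the differences without glutamine were 0.74 for S100a10, 0.28 for S100a1 and -0.86 for S100a6. S100a13 was called higher by 0.19 (adjusted p = 0.0215) with overlapping libraries, and this call was lost under several alternatives: it was 0.31 (adjusted p = 0.00121) with rescaled libraries, but 0.06 (adjusted p = 0.443) after median centring, -0.04 (adjusted p = 0.576) after quantile normalization, and 0.14 (adjusted p = 0.1) without WT glutamine-free replicate 2. The 5 comparisons share groups, so their values are not independent of each other.

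The annexins are calcium-dependent membrane-binding proteins, several of which are gripped by an S100 dimer. Of 12 listed 10 were tested, and 9 fell and 1 rose in each line. Over all tested genes 44% fell and 46% rose in WT, and 32% fell and 50% rose in p53-null cells. The median log2 changes of the annexins were -1.11 in WT and -0.70 in p53-null cells, against 0.01 and 0.08 over all genes. Anxa2, which joins S100a10 in the tetramer, was 540.8 ± 4.13 and 347.8 ± 3.1 RPKM in WT with and without glutamine and 330.9 ± 3.69 and 210.6 ± 2.68 RPKM in p53-null libraries. Its falls of -0.64 ± 0.0136 in WT and -0.65 ± 0.0136 in p53-null cells were not told apart (difference 0.01, adjusted p = 0.491; 95% interval -0.028 to 0.056), though after median centring the difference was 0.11 (adjusted p = 2.56e-05). The same difference was -1.04 for S100a10. The ratio of S100a10 to Anxa2 was 0.826 ± 0.0154 (SD, n = 3) in WT complete, 0.5896 ± 0.0042 in WT glutamine-free, 0.8733 ± 0.0106 in p53-null complete and 1.299 ± 0.0083 in p53-null glutamine-free libraries. Withdrawal thus moved this RNA ratio down in WT and up in p53-null cells. How near it came to 1 to 1 depends on the gene lengths used for RPKM, which are not given.

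Anxa1, the partner of S100a11, fell from 345.8 ± 2.34 to 47.01 ± 0.695 RPKM in WT and from 267.5 ± 3.38 to 109.2 ± 1.83 RPKM in p53-null cells. Its log2 changes were -2.85 ± 0.0159 and -1.29 ± 0.0159 (adjusted p = 3.8e-19 and 5.7e-15), and they differed by -1.57 (adjusted p = 7.5e-15). Like S100a11 it fell further in the WT line, but it fell more than S100a11 in each line, and the ratio of S100a11 to Anxa1 went from 1.213 to 1.98 in WT and from 1.707 to 3.213 in p53-null cells. Anxa6, another S100a11 partner, fell by -2.20 in WT and -0.96 in p53-null cells. Anxa8 fell from 63.04 ± 0.849 to 5.625 ± 0.424 RPKM in the p53-null line (-3.28 ± 0.0408, adjusted p = 5.7e-15) and from 5.496 to 1.177 RPKM in WT. Anxa9, at 1.581 to 3.277 RPKM in the WT groups, was the annexin that rose (0.73 in WT and 0.58 in p53-null cells).

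**Figure D3:**
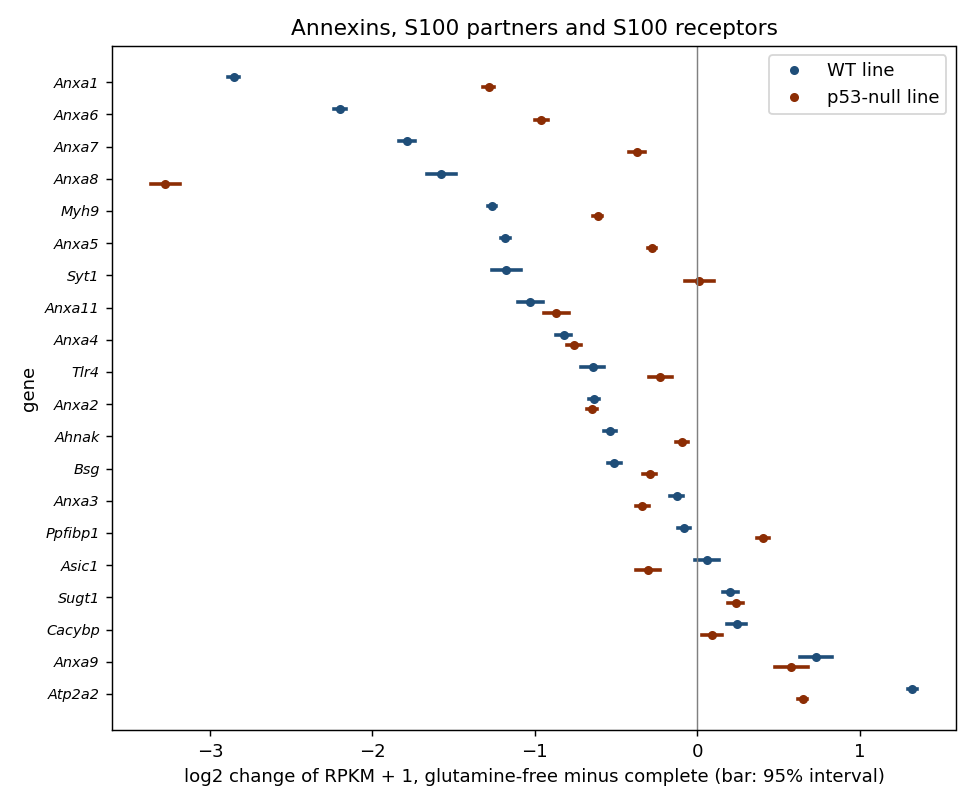
Log2 change of RPKM + 1 with glutamine withdrawal for the tested annexins, S100 partners and receptors in the WT and p53-null lines; points are limma estimates and bars 95% intervals. Anxa1 (-2.85 and -1.29) falls further in WT, Anxa8 further in p53-null cells (-3.28), the points of Anxa2 lie together, and Atp2a2 (1.33 and 0.65) lies above 0 in both lines.

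Among the other listed partners, Myh9, the myosin IIA heavy chain that S100a4 binds, fell from 160.8 ± 0.995 to 66.44 ± 0.798 RPKM in WT and from 207.9 ± 0.656 to 135.6 ± 0.714 RPKM in p53-null cells (-1.26 and -0.61; adjusted p = 3e-17 and 2.2e-13). Its means were higher in the p53-null line in both media, where those of S100a4 were far lower. Ppfibp1, liprin-beta-1, fell slightly in WT (-0.08, adjusted p = 0.00042; -0.20 under quantile normalization) and rose in p53-null cells (0.41, adjusted p = 1e-10). Of 3 tested S100a6 partners 2, Cacybp and Sugt1, rose in the WT line, against the fall of S100a6 (0.24 and 0.20, adjusted p = 2.1e-06 and 8.3e-07). Under quantile normalization these rises were 0.14 and 0.10. The other, Anxa11, fell as S100a6 did, by -1.03 in WT and -0.87 in p53-null cells (limma adjusted p = 6.8e-12 and 1.2e-10). In the p53-null line Sugt1 rose by 0.24 (adjusted p = 2.5e-07; 0.13 after median centring and 0.10 under quantile normalization), and the rise of Cacybp (0.09, adjusted p = 0.00804) was lost after median centring (-0.01, adjusted p = 0.648). Atp2a2, the calcium pump of the endoplasmic reticulum that S100a1 regulates, rose from 38.7 ± 0.285 to 98.5 ± 1.11 RPKM in WT and from 52.85 ± 0.116 to 83.47 ± 0.842 RPKM in p53-null cells (1.33 and 0.65; adjusted p = 4.2e-17 and 3e-13).

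Ahnak, the giant scaffold held by the S100a10 and annexin A2 complex, fell by -0.54 in WT (adjusted p = 2.9e-12). In p53-null cells its -0.09 (adjusted p = 0.00028) was 0.02 (adjusted p = 0.366) under quantile normalization. Asic1, another listed S100a10 partner, was not called in WT (0.06, limma adjusted p = 0.0995), but was under quantile normalization (0.34, adjusted p = 6.73e-07). Asic1 fell in p53-null cells (-0.305, adjusted p = 2.1e-06). Syt1, which is exported with S100a13, was 1.369 ± 0.14 RPKM in WT complete libraries and near 0 in the other groups. Over all 12 tested partners 8 fell and 3 rose in WT, and 7 fell and 4 rose in p53-null cells. Over all genes 44% were lower and 46% higher in WT, and 32% and 50% in p53-null cells. The partners include Anxa1, Anxa2, Anxa6 and Anxa11, which fell in both lines and are also counted among the annexins. Of the rest, Ahnak, Myh9, Ppfibp1 and Syt1 fell and Cacybp, Sugt1 and Atp2a2 rose in WT. In p53-null cells Ahnak, Myh9 and Asic1 fell and Cacybp, Sugt1, Atp2a2 and Ppfibp1 rose. The 3 extracellular receptors listed were in the table, but only 2, Bsg and Tlr4, passed the filter and were tested. Both fell in both lines, where 44% of all genes were called lower in WT and 32% in p53-null cells. Bsg fell from 227.7 ± 2.6 to 159.7 ± 4.15 RPKM in WT and from 150.7 to 122.8 RPKM in p53-null cells, and Tlr4 fell from 6.411 to 3.743 and from 3.856 to 3.145 RPKM (highest adjusted p of the 4 changes 2.4e-05).

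Of 11 other S100 genes 10 were in the table and 2 were tested. S100a3 lies among the members and went against them, from 2.489 ± 0.163 to 5.677 ± 0.672 RPKM in WT (0.93 ± 0.0853, adjusted p = 2.1e-07) and from 1.635 ± 0.236 to 2.34 ± 0.291 RPKM in p53-null cells (0.34, adjusted p = 0.00239). S100a7a was 1.046 and 1.182 RPKM in WT with and without glutamine (0.10, adjusted p = 0.288, but 0.36, adjusted p = 0.00084, under quantile normalization) and fell from 0.8883 to 0.1822 RPKM in p53-null cells (-0.67, adjusted p = 6.1e-06; -1.81 with a pseudocount of 0.1). The other 8, which include S100a8 and S100a9, the subunits of calprotectin in myeloid cells, stayed under 1 RPKM, with S100a8 reaching 0.8058 RPKM and S100a9 listed at 0 in 11 of 12 libraries. Of 7 epidermal genes that carry an S100 domain within a longer protein 2 were in the table and none was tested. Of 24 other EF-hand proteins 19 were tested, and 14 fell and 2 rose in WT while 11 fell and 6 rose in p53-null cells, with median changes of -0.63 and -0.08. Over all genes the shares were 44% lower and 46% higher in WT and 32% and 50% in p53-null cells, with medians of 0.01 and 0.08. The largest in WT were the reticulum protein Rcn3 (-2.47), Cetn2 (-1.45), Sri (-1.36) and Capn2 (-1.32), and in p53-null cells Cetn3 (-0.65), Calm3 (-0.57), Capn1 (-0.49) and Calu (0.46).

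The genes around the members moved in both directions. Of 16 other protein-coding genes within 100 kb of a member 7 were tested, S100a3 and S100a7a included, and 3 rose and 3 fell in WT while 2 rose and 5 fell in p53-null cells. These counts in WT are near the shares over all genes (44% lower, 46% higher); in p53-null cells 32% were lower and 50% higher. Chtop, which lies next to S100a1, went from 27.05 to 52.58 RPKM in WT (0.93, adjusted p = 8.7e-15) as S100a1 and S100a13 fell, and from 31.71 to 30.37 RPKM in p53-null cells (-0.06, adjusted p = 0.0049, but -0.04, adjusted p = 0.059, with libraries rescaled to one RPKM sum, and -0.21 under quantile normalization). Npr1 (-0.96, or -2.04 with a pseudocount of 0.1), Ilf2 (-0.79) and Snapin (-0.58) fell in WT. Ints3 rose by 0.32 in p53-null cells (0.18 under quantile normalization), and its rise of 0.10 in WT (adjusted p = 0.00033) was lost under quantile normalization (0.01, adjusted p = 0.666).

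**Figure D4:**
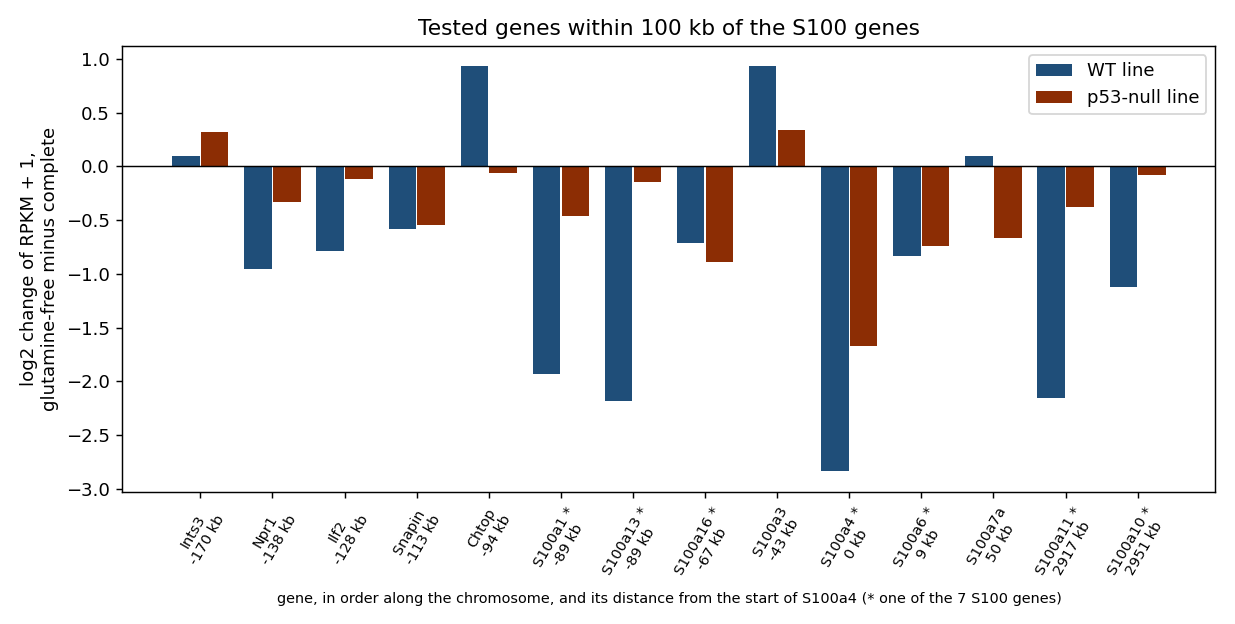
Log2 change of RPKM + 1 with glutamine withdrawal (bars, WT and p53-null lines) for the 7 S100 genes, marked by stars, and the tested genes within 100 kb of them, in order along the chromosome; labels give the distance from the start of S100a4 in kb. S100a3 (0.93) and Chtop (0.93) lie above 0 in WT among members that lie below.

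As a description of patterns over the 12 libraries, the genes most like each member by Pearson r of log2(RPKM + 1) were sought among 9115 tested genes with at least 5 RPKM in a group. The libraries form 4 tight groups, so r rests on 4 group means and has no test. For S100a4 they were Tgfbr3 (r = 0.9987), Acad9 and Psmd2 (0.9983 each). Tgfbr3 had 35.48, 11.59, 3.147 and 1.307 RPKM in the order of groups used above, while Psmd2 kept the order of S100a4 over a narrow range, from 127.3 to 73.4 RPKM. For S100a6 they were Slc48a1, Fto and Tecr (0.9989, 0.9989 and 0.9988), and for S100a10 Ccdc109b, Lynx1 and Cic (0.9988, 0.9981 and 0.9964). S100a11 was most like Kif20a (0.9993), Pcolce (0.9992) and Thbs1 (0.9984), the last of which had 88.66, 4.75, 102.7 and 55.06 RPKM. S100a1 was most like Tln1, Cd109 and Anxa7 (0.9978, 0.9974 and 0.9966), an annexin again. S100a13 was most like Ifit3, Mtmr6 and Ikzf2 (0.9958, 0.9955 and 0.9952), and S100a16 like Trim3, Nrep and Ctnnd1 (0.9941, 0.9934 and 0.993).

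Whether the 3 libraries per group stem from separate cultures is not in the labels, so all p-values measure the spread between libraries, which may be technical. For a single gene, permuting 3 against 3 libraries exactly and on both sides cannot give less than p = 0.1.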

How the data were processed

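The deposited table gives 1 RPKM value per gene and library, computed by the authors, and it holds no read counts. CASAVA 1.8, HISAT2 2.0.4, Partek and mm10 are named in the submitters' processing notes; neither the annotation nor a rule for shared reads is given there. The library kit, per the labels' protocols, does not mark strand. RPKM divides by length and mapped reads, so a few abundant genes lower all others. Low values were whole reads within 0.05 for only 63.0 to 69.7% of values, so reads were not recovered and no count test was run.

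The 11461 genes that reached 1 RPKM in 3 or more of 12 libraries were fitted as log2(RPKM + 1) with limma 3.58.1 (R 4.3.3) on 4 group means with a mean-variance trend. P-values of the 5 comparisons were adjusted by Benjamini and Hochberg over all tested genes and called under 0.05. The fit was tested on simulated data. Alternatives covered the pseudocount, filter, scaling, trend, groups fitted, a replicate block and leaving out each library; those for genes other than the 7 members were added after seeing the data. Over genes with a single annotated transcript, libraries of a group differed by 1.72 to 5.27 times counting variance. That range rests on reads estimated from the inferred depth, and not on counts. Across all tested genes libraries of a group correlated at r = 0.9981 to 0.9989.

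Gene positions are from GENCODE M21 (GRCm38) and sequences from RefSeq. Named are the 7 members, other S100 genes, partners, annexins and receptors that passed the filter, at most 4 called EF-hand genes and neighbours with the largest changes, the 3 genes most like each member, and Trp53. The members and lists were chosen with earlier results of these data known.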

Additional observations from a re-analysis of the deposited data

Results flagged for a closer look

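In 6 of the 7 S100 genes the response to glutamine withdrawal differed between the lines by the interaction test of limma (WT log2 change minus p53-null log2 change, 3 libraries a group). The differences were -2.04 for S100a13, -1.78 for S100a11, -1.48 for S100a1, -1.17 for S100a4, -1.04 for S100a10 and -0.10 for S100a6. In S100a4, S100a10, S100a11, S100a1 and S100a6 every library without glutamine lay below every library with it in both lines, and the size of the fall differed. For S100a6 the difference was small, at the 47.33 percentile of all tested genes, whose median was -0.06. It was 0.00 after median centring (limma adjusted p = 0.963). In S100a13 the fall in the p53-null line did not pass the test. Over all tested genes 84.9% were called in this comparison, so a call alone sets no gene apart, and with 1 line per genotype p53 and other differences between the lines cannot be told apart.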

How the results depend on the processing

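Of 35 changes (7 S100 genes in 5 comparisons), 30 kept their direction and their side of the threshold in every alternative, and 704 of 723 alternative values did; 7 lost a call, 8 gained one and 4 turned direction. Those that turned were the S100a16 difference of responses with a pseudocount of 0.1 (-0.1465; not called in either fit), the S100a6 difference of responses after median centring (0.0014), and under quantile normalization the S100a10 change in the p53-null line (0.0341) and the S100a13 difference between lines without glutamine (-0.0404). The number of S100 genes called higher in the p53-null line in complete medium was 1 with a filter of 5 RPKM, under which S100a16 was not tested, and the number called above 0 for the difference of responses was 1 after median centring, 1 after quantile normalization and 0 to 1 when each library was left out. The S100a13 call between lines without glutamine was lost with no filter (adjusted p = 0.0529), with only the 2 groups fitted (0.0536) and without WT glutamine-free replicate 3 (0.0788) or p53-null glutamine-free replicates 2 (0.0578) or 3 (0.093). The S100a13 fall in the p53-null line passed without WT glutamine-free replicate 1 (0.0229) or p53-null glutamine-free replicate 3 (0.0397). Of 105 changes of other named genes 89 kept call and direction throughout, and 11 alternative values turned direction. Called in at least 1 of the fits were Cacybp (-0.0136) and Syt1 (-0.0943) in p53-null cells and the Sugt1 difference (0.065) after median centring, and Ahnak in p53-null cells (0.0155) and the Anxa11 difference (0.0015) under quantile normalization. Called in neither were the Anxa4 (0.0366) and Snapin (0.0593) differences after median centring and under quantile normalization (0.0108 and 0.0653), and Rcn3 in p53-null cells (0.0029) and the Anxa2 difference (-0.0282) with libraries rescaled to one RPKM sum. Of called changes, 14 alternative values of S100 genes kept direction but moved by over 1.5 times, all under another scaling or pseudocount. Median centring shifted the median change of all genes by -0.106 in the p53-null line, by -0.136 between lines without glutamine and by 0.1 for the difference of responses. The cause of these changes was not tested. Same-numbered libraries did not deviate together (r = -0.106 to 0.088 over 18 pairs, and 3 of 12 libraries correlated best with their own number); a replicate block gave 10322, 9385, 10409, 10486 and 9733 calls over all genes against 10321, 9403, 10418, 10474 and 9727 without it, and changed no call of an S100 gene. Depth limits S100a16 most, then S100a13 and S100a1, at an estimated 30, 82 and 101 reads in their lowest libraries.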
